A study of Mus musculus with 8 samples.

Results

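The mitochondrial ribosomal proteins were examined in visceral white adipose tissue (vWAT) of KIKO and WT mice. The members were all protein-coding genes whose symbol begins with Mrpl or Mrps and a number, pseudogenes left out. This gave 78 genes of the 31053 in the count table, 49 Mrpl genes of the large subunit and 29 Mrps genes of the small subunit. Mitochondria carry their own ribosome, which translates the few proteins encoded by mitochondrial DNA, most of them core subunits of the respiratory chain. Its RNAs come from mitochondrial DNA, whereas all of its proteins are encoded in the nucleus, made in the cytosol and imported. Some of these proteins have homologues in the bacterial ribosome, and the others, called mitochondria-specific here, have none in it. Several small subunit proteins hold iron-sulfur clusters, cofactors that are themselves assembled in mitochondria.

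RNA-seq was done on 1 vWAT sample from each of 4 KIKO and 4 WT mice, males aged 8 months by the study's methods and of strain C57BL/6 by the labels. KIKO mice are knockin/knockout animals, with 1 altered and 1 knocked-out copy of the same gene in every cell of the body. WT littermates carried neither allele, and no group was treated. All values are RNA levels in whole tissue, so fewer cells of a type and less RNA per cell cannot be told apart.

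Library totals were 2602189 to 3478539 counts in KIKO mice and 2936515 to 3119146 counts in WT mice, of which 10408 to 14109 fell on the tested mitochondrial ribosomal protein genes in each library. Levels are given as counts per 1000000 (CPM) after scaling by edgeR's TMM factors. Adipocyte markers were abundant (12 of 12 tested, summed level 96384 to 106752 CPM in KIKO mice and 72075 to 97066 CPM in WT mice), and 7 of 8 epididymis and testis markers had no count in any library. Of the other marker lists, 1 of 10 macrophage markers (Lyz2), 2 of 5 mast cell markers (Cpa3 and Cma1) and 1 of 5 mesothelial markers (Krt19) passed at an adjusted p under 0.05 in edgeR with KIKO higher, where 0.28% of all 11080 tested genes did. The mast cell markers did not share a direction. Of the 5 tested, 3 had estimates above 0. Another 1 had an unadjusted p under 0.05 with KIKO lower, as 9.06% of all tested genes did. With KIKO lower, 1 of 9 endothelial markers (Robo4) passed, where 0.397% of all tested genes did. Macrophage markers summed to 2028 to 2423 CPM in KIKO mice and 1614 to 1869 CPM in WT mice, and these ranges did not overlap. Nor did those of fibroblast progenitor markers (3628 to 4324 CPM in KIKO mice, 2944 to 3372 CPM in WT mice). A sum is set mostly by the most abundant genes, however. Only 4 of the 8 fibroblast progenitor markers had estimates above 0 (median 0.05), and 0 passed. The sums of lymphocyte markers were also apart (77.7 to 117 CPM in KIKO mice, 58.6 to 76.4 CPM in WT mice). Brown adipocyte markers summed to 12.3 to 125 CPM in KIKO mice and 9.83 to 18.7 CPM in WT mice. Only 1 of these 5 was tested, with a log2 fold change of 1.82 that did not pass. Endothelial markers summed to 515 to 825 CPM in KIKO mice and 783 to 1007 CPM in WT mice, with overlapping ranges. Of the 9 endothelial markers, 0 had an estimate above 0 (median -0.34). None of the 6 mural cell markers passed, and all of their estimates lay below 0 (median -0.55). The part of these lists in the values below was not tested. WT mouse 3 stood apart from the other WT mice and fell among the KIKO mice on principal component 1 (32.8% of the variance). Counts of mitochondrially encoded genes took 9.93 to 10.6% of each KIKO library and 6.91 to 10.7% of each WT library, with the highest WT share in WT mouse 3.

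No mitochondrial ribosomal protein gene passed the test between KIKO and WT vWAT. After the filter on low counts, 74 members were tested, 47 of the large and 27 of the small subunit. At an adjusted p under 0.05 in edgeR's quasi-likelihood test, 0 of 47 and 0 of 27 passed, where 0.677% of all 11080 tested genes did. DESeq2, limma-voom and limma on the authors' log2 values also called 0 members, as did edgeR with no filter on low counts. With KIKO higher, DESeq2 called 2.52% of 5941 genes and the unfiltered fit 0.807% of 18092 genes, and with KIKO lower they called 2.26% and 1.3%. An unadjusted p under 0.05 was reached by 7 large subunit genes (14.9%) and 3 small subunit genes (11.1%), all with the higher mean in KIKO mice. Over all tested genes the share was 16.2% in either direction, 7.13% with KIKO higher and 9.06% with KIKO lower. The median log2 fold change was 0.08 for the large subunit and 0.13 for the small subunit, beside -0.01 for all tested genes. Values above 0 were found for 34 of 47 large subunit genes (72.3%) and 23 of 27 small subunit genes (85.2%), against 49% of all tested genes. Scaled by library size alone, these counts were 24 of 47 and 17 of 27, against 39.1% of all tested genes, with medians of 0.01 and 0.07. Under that scaling, 5 large subunit genes reached an unadjusted p under 0.05 with KIKO higher and 2 with KIKO lower. In the small subunit 1 gene did, with KIKO higher. Of all 11080 tested genes, 519 did with KIKO higher and 1393 with KIKO lower. Genes measured in the same 8 libraries are not independent observations, so these counts and shares carry no test.

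**Figure D1:**
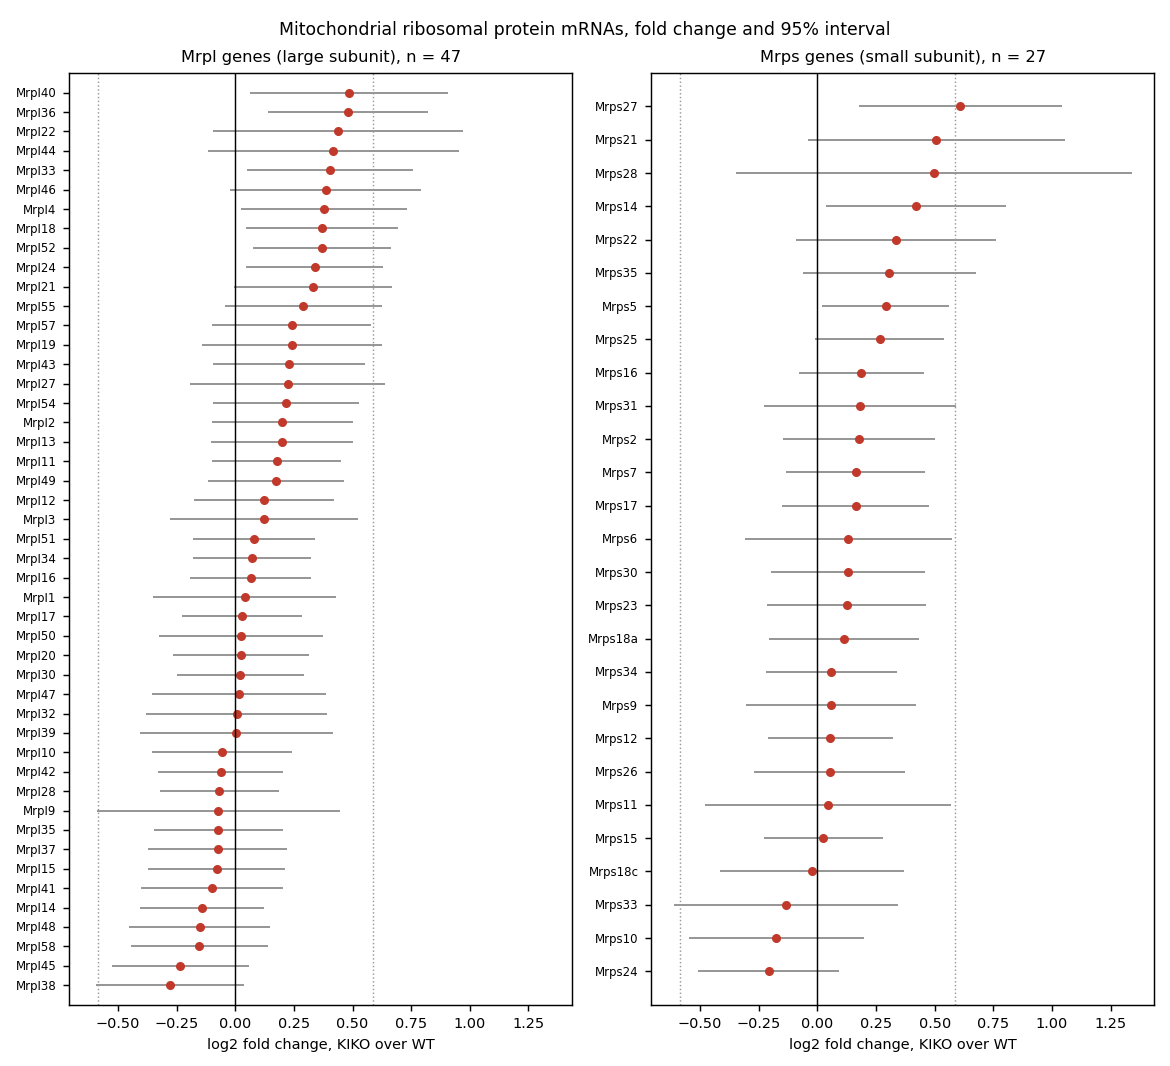
Log2 fold change of KIKO over WT (points) with its 95% interval (lines) for the 47 tested Mrpl genes and the 27 tested Mrps genes, ordered by value. Dotted lines mark a 1.5-fold difference in either direction. Most points lie right of 0, and most intervals include 0.

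The intervals bounded the size of any difference for most members. The 95% interval lay wholly within 1.5-fold in either direction for 31 of 47 large subunit genes and 19 of 27 small subunit genes. Log2 fold changes ranged over -0.28 to 0.48 in the large subunit and -0.21 to 0.61 in the small subunit, and only Mrps27 had an estimate past 1.5-fold. Genes with a homologue in the bacterial ribosome and mitochondria-specific genes overlapped in their values. In the large subunit, the median was 0.12 over 29 genes with a bacterial homologue and 0.05 over 18 mitochondria-specific genes. In the small subunit, it was 0.15 over 16 genes with a homologue and 0.18 over 9 mitochondria-specific genes. Mrps18a and Mrps30, whose proteins sit in the large subunit despite their names, had log2 fold changes of 0.11 and 0.13. These 2 genes are counted here with the small subunit, as their symbols have it.

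In the large subunit, the 8 genes with the smallest p-values were Mrpl36, Mrpl52, Mrpl24, Mrpl18, Mrpl40, Mrpl33, Mrpl4 and Mrpl21, and the mean level of each was higher in KIKO mice. Mrpl36 (ENSMUSG00000021607, chr13:73328513-73332178, + strand, GRCm38) encodes the homologue of the small bacterial protein L36. It had 37.6, 36.4, 34.7 and 34.3 CPM in the KIKO mice, against 19.0, 25.1, 32.1 and 26.1 CPM in the WT mice. Every KIKO mouse lay above every WT mouse, and the KIKO values were the closer together. Its log2 fold change was 0.48 (SE 0.16, 95% interval 0.14 to 0.82), which did not pass (adjusted p = 0.159, edgeR; exact permutation p = 0.0286, two-sided, the smallest that 4 against 4 mice allow). Groups that did not overlap with KIKO higher were found for 3.89% of all tested genes, and Mrpl36 was the only such gene in the large subunit. Mrpl40 (ENSMUSG00000022706, chr16:18872018-18876862, - strand), for a mitochondria-specific protein, had 52.8, 49.6, 57.3 and 53.3 CPM in the KIKO mice, against 21.9, 35.1, 51.9 and 43.9 CPM in the WT mice. WT mouse 3 reached the KIKO range for this gene. Its log2 fold change was 0.48 (SE 0.20, adjusted p = 0.243, edgeR).

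The other named large subunit genes had a similar layout. Mrpl18 (ENSMUSG00000057388, chr17:12911349-12916345, - strand) encodes the homologue of bacterial L18, a protein of the central protuberance. It had 102, 86.3, 86.8 and 105 CPM in the KIKO mice, against 55.8, 68.7, 93.7 and 76.0 CPM in the WT mice, and only WT mouse 3 entered the KIKO range. Mrpl33 (ENSMUSG00000106918, chr5:31596935-31664384, + strand), for the homologue of bacterial L33, had 135, 111, 99.5 and 124 CPM in the KIKO mice, against 66.3, 78.4, 119 and 91.8 CPM in the WT mice. Here too WT mouse 3 was the WT library inside the KIKO range. The log2 fold changes of Mrpl18 and Mrpl33 were 0.37 (SE 0.15) and 0.40 (SE 0.17), with adjusted p = 0.243 and 0.245 in edgeR. Mrpl52 averaged 67.8 ± 9.55 CPM in KIKO mice and 52.5 ± 5.38 CPM in WT mice, and Mrpl24 averaged 87.8 ± 11.5 CPM in KIKO mice and 69.6 ± 8.69 CPM in WT mice (SD, n = 4 each). Mrpl4, whose bacterial homologue lines the exit tunnel, averaged 46.8 ± 5.94 CPM in KIKO mice and 36.2 ± 8.30 CPM in WT mice. Mrpl21 averaged 37.8 ± 2.42 CPM in KIKO mice and 30.1 ± 6.44 CPM in WT mice.

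The other direction was rarer. Of the large subunit genes, 13 had estimates below 0, and the lowest was Mrpl38 at -0.28. Mrpl45, which lies near the tunnel exit and associates with the inner membrane, was the only member whose groups did not overlap with KIKO lower, as 4.56% of all tested genes did. It had 54.8, 55.5, 38.2 and 48.0 CPM in the KIKO mice, against 56.7, 56.3, 57.6 and 60.3 CPM in the WT mice. KIKO mouse 3 was well below the rest, and KIKO mice 1 and 2 lay just under the WT range. Its log2 fold change was -0.23 (SE 0.14, adjusted p = 0.426, edgeR). Mrpl38, Mrpl45 and Mrpl58, the last a peptidyl-tRNA hydrolase built into the large subunit, are all mitochondria-specific. So are Mrpl40 and Mrpl52, which had the higher mean in KIKO mice. Estimates lay above 0 for 11 of 18 mitochondria-specific large subunit genes and 23 of 29 with a bacterial homologue.

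**Figure D2:**
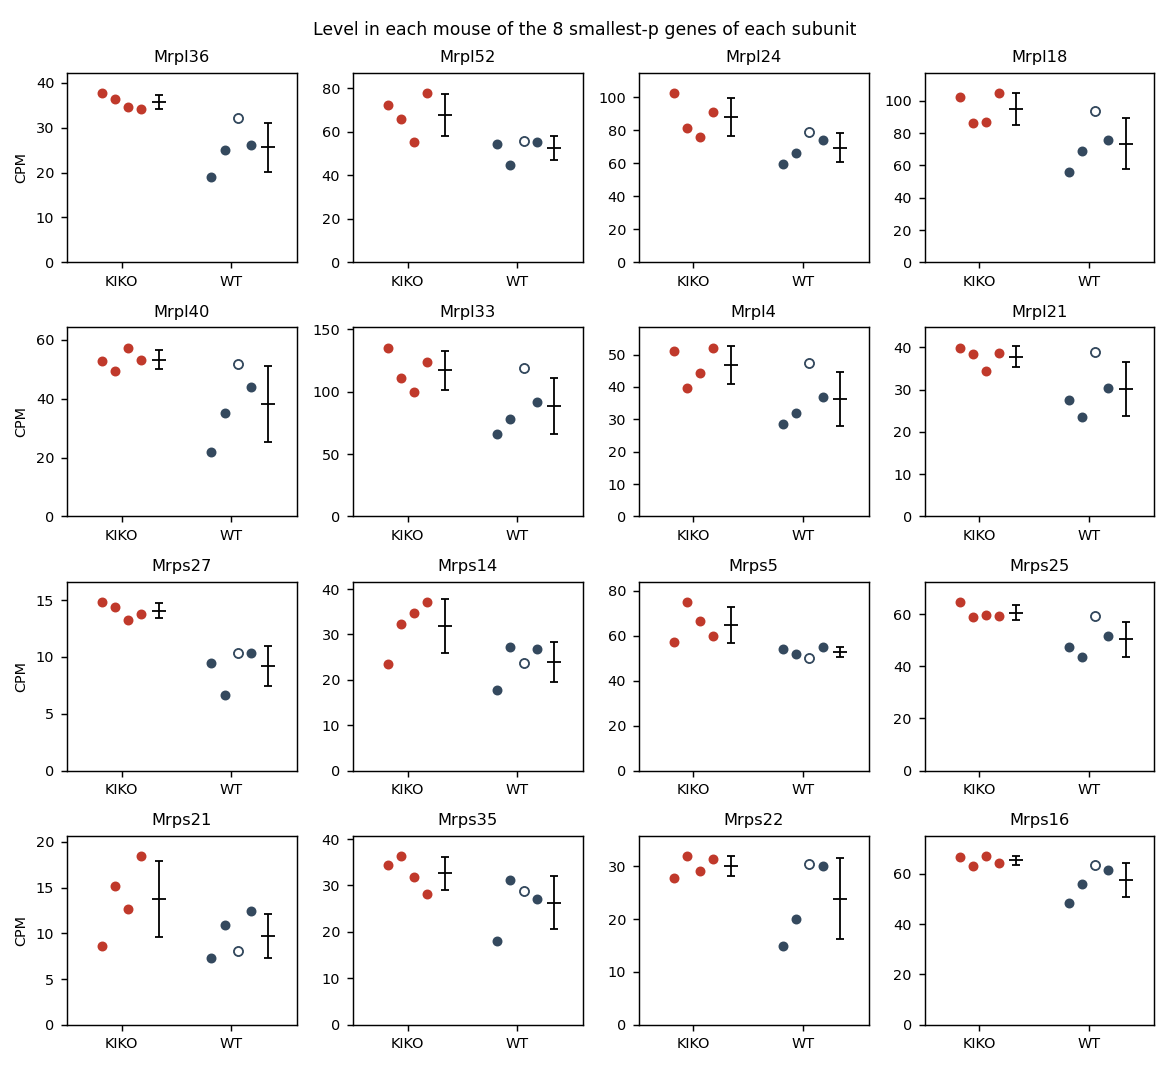
Level (CPM, linear axis from 0) in each mouse for the 8 genes of each subunit with the smallest p-values, KIKO in red and WT in dark blue, points in order of mouse number within a group, bars showing mean and SD (n = 4). The open circle is WT mouse 3, which is the highest WT mouse for Mrpl36, Mrpl40, Mrpl18 and Mrpl33.

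Promoter sequence is shown for the large subunit genes whose call depended on WT mouse 3 (below) and for Mrps27, the member with the largest estimate. RefSeq promoters (GRCm38.p6) running over 250 bases before and 50 bases after the start were found for 69 of the 78 members by symbol. They were searched on both strands for CCGGAAG (bound by ETS factors such as GABPA), GCGCATGC (a core of the NRF1 site) and AAGATGGC (the YY1 site), all of them factors known to act on nuclear genes for mitochondrial proteins. Among tested members, 35.4% of 65 promoters held the ETS letters, against 19% of the promoters of all tested genes and 9.12% of all promoters. The NRF1 letters were in 10.8% of members, against 5.67% of tested genes and 2.8% of all promoters, and the YY1 letters in 18.5% of members, against 5.02% of tested genes and 2.88% of all promoters. At least 1 of the 3 was in 53.8% of members and 27.1% of tested genes. The median log2 fold change was 0.11 over the 35 tested members that held any of them and 0.13 over the 30 that held none. For the ETS letters alone it was 0.19 over 23 members with them and 0.05 over 42 without. The other 2 motifs ran the other way. The median was 0.005 over 7 members with the NRF1 letters and 0.12 over 58 without. For the YY1 letters it was 0.05 over 12 members with them and 0.12 over 53 without. These differences were not tested. A match is a description of letters and not a site. The 80 bases before the RefSeq start are given from 5′ to 3′ on the gene's strand, with matches in capitals.
Mrpl36 (chr13:73330929-73331008, + strand): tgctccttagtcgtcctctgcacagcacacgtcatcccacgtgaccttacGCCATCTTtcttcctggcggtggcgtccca
Mrpl40 (chr16:18876638-18876717, - strand): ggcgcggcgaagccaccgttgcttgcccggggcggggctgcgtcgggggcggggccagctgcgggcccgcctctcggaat
Mrpl18 (chr17:12916092-12916171, - strand): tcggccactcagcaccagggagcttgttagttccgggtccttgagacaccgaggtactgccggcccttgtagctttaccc
Mrpl33 (chr5:31613871-31613950, + strand): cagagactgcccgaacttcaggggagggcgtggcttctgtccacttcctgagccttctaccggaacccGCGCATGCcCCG
Mrps27 (chr13:99344706-99344785, + strand): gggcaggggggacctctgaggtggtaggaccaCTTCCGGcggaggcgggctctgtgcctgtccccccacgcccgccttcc
The capitals mark the YY1 letters on the opposite strand in Mrpl36 and the ETS letters on the opposite strand in Mrps27. In Mrpl33 the first run of capitals marks the NRF1 letters, and the last 3 bases are the beginning of an ETS match that runs across the start. Outside the printed stretches, an ETS match in Mrpl18 began at position -240 relative to the start, and a YY1 match in Mrps27 began at base 15 counted from the start. Mrpl40 held none of the 3 anywhere in the searched window. For Mrpl36, Mrpl40, Mrpl18 and Mrpl33 the printed bases lie inside the GENCODE span given above, so the RefSeq and GENCODE starts differ. For Mrps27 they end just before the GENCODE start.

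In the small subunit, the 8 genes with the smallest p-values were Mrps27, Mrps14, Mrps5, Mrps25, Mrps21, Mrps35, Mrps22 and Mrps16, again all with the higher mean in KIKO mice. Mrps27 (ENSMUSG00000041632, chr13:99344786-99415562, + strand) encodes a mitochondria-specific pentatricopeptide repeat protein. It had 14.9, 14.4, 13.3 and 13.8 CPM in the KIKO mice, against 9.51, 6.66, 10.4 and 10.4 CPM in the WT mice. The groups did not overlap, and these levels rest on 36 to 47 counts per KIKO library and 22 to 31 counts per WT library. The log2 fold change was 0.61 (SE 0.20, 95% interval 0.18 to 1.04), a 1.53-fold difference that did not pass (adjusted p = 0.162, edgeR). Mrps5 (ENSMUSG00000027374, chr2:127587222-127606829, + strand), for the homologue of bacterial S5, which acts in decoding, had 57.1, 75.1, 66.7 and 60.05 CPM in the KIKO mice, against 54.2, 51.8, 50.2 and 54.9 CPM in the WT mice. Its groups did not overlap either, although the lowest KIKO mouse was close to the highest WT mouse. The log2 fold change was 0.29 (SE 0.13, adjusted p = 0.267, edgeR).

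Mrps14, the homologue of bacterial S14, averaged 31.9 ± 5.99 CPM in KIKO mice and 23.9 ± 4.38 CPM in WT mice (SD, n = 4 each). Mrps22 averaged 30.0 ± 1.96 CPM in KIKO mice and 23.9 ± 7.71 CPM in WT mice, and Mrps35 averaged 32.6 ± 3.56 CPM in KIKO mice and 26.3 ± 5.73 CPM in WT mice. Both are mitochondria-specific, and for both the WT spread was the wider. Mrps21 was among the low members, at 13.7 ± 4.17 CPM in KIKO mice and 9.65 ± 2.40 CPM in WT mice. Estimates lay below 0 for 4 of 27 genes, Mrps24, Mrps10, Mrps33 and Mrps18c, and none of these genes had groups that did not overlap.

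The proteins that hold the iron-sulfur clusters of the small subunit are known to be Mrps6, Mrps16, Mrps18c and Mrps25, and none of their genes passed. Mrps25 had 64.7, 58.7, 59.6 and 59.2 CPM in the KIKO mice, against 47.2, 43.6, 59.2 and 51.6 CPM in the WT mice. WT mouse 3 lay within the KIKO range and the other WT mice were below it (log2 fold change 0.27, SE 0.13, adjusted p = 0.33, edgeR). Mrps16 averaged 65.3 ± 1.86 CPM in KIKO mice and 57.4 ± 6.76 CPM in WT mice (SD, n = 4 each). Mrps18c averaged 27.3 ± 5.98 CPM in KIKO mice and 27.9 ± 5.03 CPM in WT mice, and its estimate of -0.02 changed sign when single mice were left out. Mrps6 was the highest and the most variable of the group. It had 395, 345, 277 and 312 CPM in the KIKO mice, against 195, 255, 459 and 304 CPM in the WT mice, so that both extremes were WT mice. The log2 fold change was 0.13 (SE 0.21, adjusted p = 0.797, edgeR) and turned to -0.03 without WT mouse 1. Mrps6 shares its strand and 29152 bases with Slc5a3, so the division of reads between these 2 genes is uncertain. Slc5a3 had a log2 fold change of -0.40 (SE 0.15, adjusted p = 0.214, edgeR). Mettl17, an iron-sulfur protein that acts in assembly of the small subunit, had 3.96, 8.79, 5.51 and 6.74 CPM in the KIKO mice, against 5.71, 11.2, 7.70 and 10.05 CPM in the WT mice (log2 fold change -0.48, SE 0.29, adjusted p = 0.445, edgeR).

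Summed levels of both subunits ranged more widely over the WT mice than over the KIKO mice. The 47 tested large subunit genes summed to 2807, 2634, 2506 and 2666 CPM in the KIKO mice, against 2192, 2410, 2757 and 2494 CPM in the WT mice. The 27 small subunit genes summed to 1566, 1525, 1373 and 1466 CPM in the KIKO mice, against 1181, 1242, 1630 and 1390 CPM in the WT mice. In both subunits WT mouse 1 was the lowest of all 8 mice and WT mouse 3 the highest WT mouse. WT mouse 3 lay within the KIKO range for the large subunit and above every KIKO mouse for the small subunit, where WT mouse 4 lay within the KIKO range. Among WT mice, WT mouse 3 had the highest level of 30 of 47 large subunit genes and 13 of 27 small subunit genes, and WT mouse 1 the lowest level of 25 and 11 of them. To weigh each gene equally, each gene's log2 level was set against its own mean over the 8 mice and the median deviation was taken. In the small subunit it was 0.08 to 0.09 in all KIKO mice, against -0.19, -0.12, 0.10 and -0.02 in the WT mice. The SD of this deviation between mice was 0.0061 in KIKO mice and 0.13 in WT mice (n = 4 each). In the large subunit the SD was 0.033 in KIKO mice and 0.12 in WT mice.

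**Figure D3:**
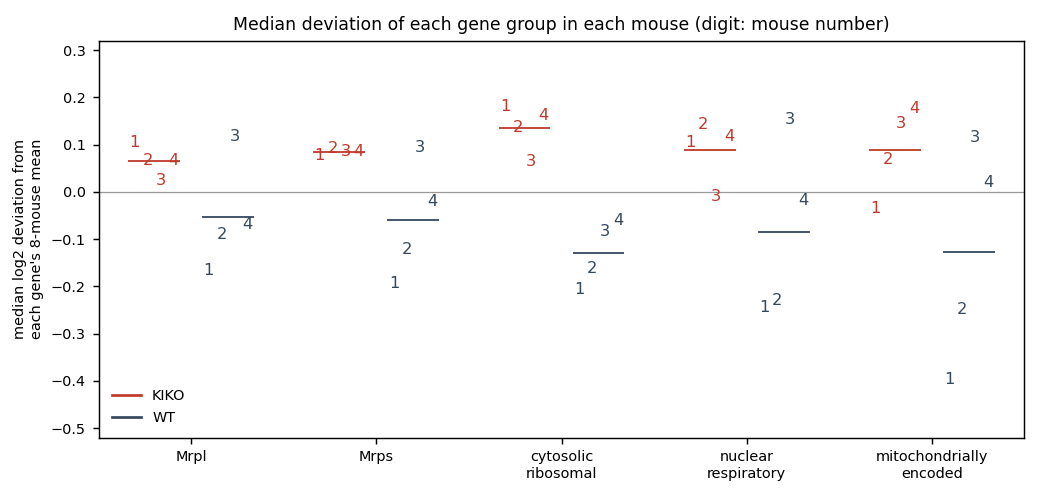
Median log2 deviation of each gene group from its genes' own 8-mouse means, by mouse (digits give the mouse number, KIKO left in red, WT right in dark blue, horizontal lines the group means). WT mouse 3 lies in or above the KIKO range for both mitochondrial ribosomal subunits and the nuclear respiratory genes, and WT mouse 1 is the lowest mouse in all 5 gene groups.

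WT mouse 3 decided whether any member passed. Without it, 4 large subunit genes passed in edgeR, all with KIKO higher, where 2.53% of 11261 tested genes passed in that direction and 3.28% in the other. These were Mrpl33 (log2 fold change 0.58, adjusted p = 0.0339), Mrpl36 (0.61, adjusted p = 0.0347), Mrpl18 (0.51, adjusted p = 0.0453) and Mrpl40 (0.67, adjusted p = 0.0491). No small subunit gene passed. The medians without it were 0.13 for the large subunit and 0.21 for the small subunit, and the counts above 0 stayed at 34 of 47 and 23 of 27. No member passed when any other mouse was left out. No label sets WT mouse 3 apart, so the values with all 8 mice are the ones reported.

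The median log2 fold change of each mitochondrial ribosomal subunit lay below that of the proteins of the cytosolic ribosome, which translates nuclear mRNAs. Of 81 tested cytosolic ribosomal protein genes, 3 passed in edgeR with KIKO higher, where 0.28% of all tested genes did, and none with KIKO lower. The median log2 fold change was 0.27, with 74 of 81 above 0. The number passing depended on the fit. DESeq2 called 24 of the 78 with an adjusted p, where it called 2.52% of all genes with KIKO higher. Without WT mouse 3 edgeR called 19, where 2.53% of all genes passed in that direction. It called 0 or 1 when any other single mouse was left out. With the replicate block or the length and GC correction it called 0. Nuclear genes for respiratory chain subunits, which work beside the products of the mitochondrial ribosome, had a median of 0.19 over 77 tested genes. Of these, 68 lay above 0 and 0 passed in edgeR. An unadjusted p under 0.05 was reached by 14, all with KIKO higher, where 7.13% of all tested genes did. DESeq2 called 2 of the 70 with an adjusted p higher, where it called 2.52% of all genes. With no filter on low counts edgeR called 2 of 80 higher and 1 lower, where the shares over all genes were 0.807% and 1.3%. Without WT mouse 3 edgeR called 10 higher, where 2.53% of all genes passed in that direction. The proteins that the mitochondrial ribosome itself makes are encoded by 13 mitochondrial genes, of which 11 were tested. None passed in edgeR or DESeq2, and their median was 0.14 with a range of -0.03 to 0.34. That median was 0.04 to 0.27 when single mice were left out, and it turned to -0.05 with the length and GC correction, under which 5 of 11 lay above 0. mt-Co1, a core subunit of cytochrome c oxidase, had the one estimate of this group with an unadjusted p under 0.05 (log2 fold change 0.28, SE 0.12, adjusted p = 0.262, edgeR). With the length and GC correction the median was 0.16 for the cytosolic and 0.09 for the nuclear respiratory genes, beside 0.07 for the large and 0.12 for the small mitochondrial subunit, so that the order of the small subunit and the nuclear respiratory genes turned. The difference between these gene groups was not tested. By median deviation the cytosolic genes kept the groups apart (0.06 to 0.18 in KIKO mice and -0.21 to -0.06 in WT mice), which neither mitochondrial subunit did.

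**Figure D4:**
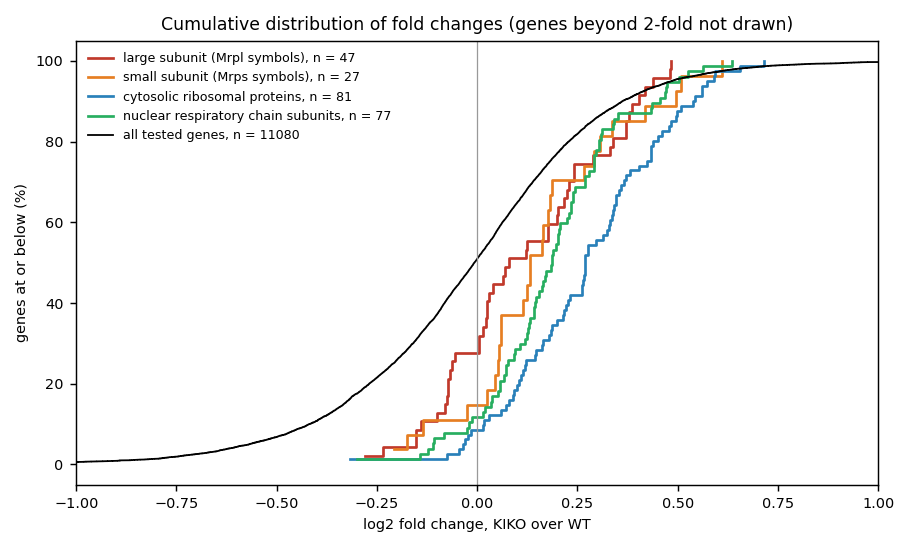
Cumulative share of genes (%) at or below each log2 fold change of KIKO over WT, for the Mrpl genes, the Mrps genes, cytosolic ribosomal proteins, nuclear respiratory chain subunits and all 11080 tested genes. Over the middle of the range, the 2 mitochondrial curves run between the curve of all genes, whose median is -0.01, and that of the cytosolic ribosomal proteins, whose median is 0.27.

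Transcript length moved with genotype in these libraries, apart from WT mouse 3. The Spearman correlation over genes between transcript length and a library's deviation from the mean level was -0.15, -0.16, -0.07 and -0.20 in the KIKO mice, against 0.25, 0.24, -0.10 and 0.10 in the WT mice, so that WT mouse 3 lay within the KIKO range. Over 11075 tested genes, the Spearman correlation between log2 fold change and transcript length was -0.26, and mitochondrial ribosomal protein transcripts are short (median 1335.5 bases, against 3046 for all tested genes). Within the members it was -0.34 over the 47 large subunit genes and 0.29 over the 27 small subunit genes, and after the correction described next it was -0.01 and 0.54. With a correction for length and GC content, 29 of 47 large and 17 of 27 small subunit genes lay above 0, against 51.6% of all tested genes, with medians of 0.07 and 0.12 and 0 genes passing. Members with an unadjusted p under 0.05 then lay in both directions. In the large subunit 3 were higher in KIKO mice and 2 lower, and in the small subunit 4 were higher and 1 lower. Of all 11075 tested genes, 786 were higher and 835 lower at that threshold. These correlations are descriptions over genes of the same 8 libraries.

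Levels differed more between members than between genotypes. Per kilobase of the principal transcript, large subunit genes spanned 4.2 to 215.6 CPM per kb and small subunit genes 6.24 to 375.6 CPM per kb over all 8 mice. The highest in the large subunit were Mrpl33 (245.3 CPM per kb in KIKO mice and 185.8 in WT mice), Mrpl34 (215.7 in KIKO mice and 205.6 in WT mice) and Mrpl52 (162.2 in KIKO mice and 125.7 in WT mice). The ranges of Mrpl33 and Mrpl34 over the 8 mice overlapped, so their order is not set beyond that spread. The lowest were Mrpl19, Mrpl1 and Mrpl3, at 4.73, 4.38 and 4.2 CPM per kb, with overlapping ranges. In the small subunit Mrps6 led (392.8 CPM per kb in KIKO mice and 358.4 in WT mice), apart from the Mrps15 level of 151.3 in KIKO mice and 148.7 in WT mice and the Mrps12 level of 141.8 in KIKO mice and 136.4 in WT mice. Mrps35, Mrps27 and Mrps28 were the lowest, at 7.08, 6.3 and 6.24 CPM per kb. Division by length assumes reads along the whole transcript. The labels and the study's methods name different library kits, and over all tested genes the level in CPM was unrelated to length (Spearman correlation 0.01 over 11075 genes), so these orders hold only under that assumption.

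**Figure D5:**
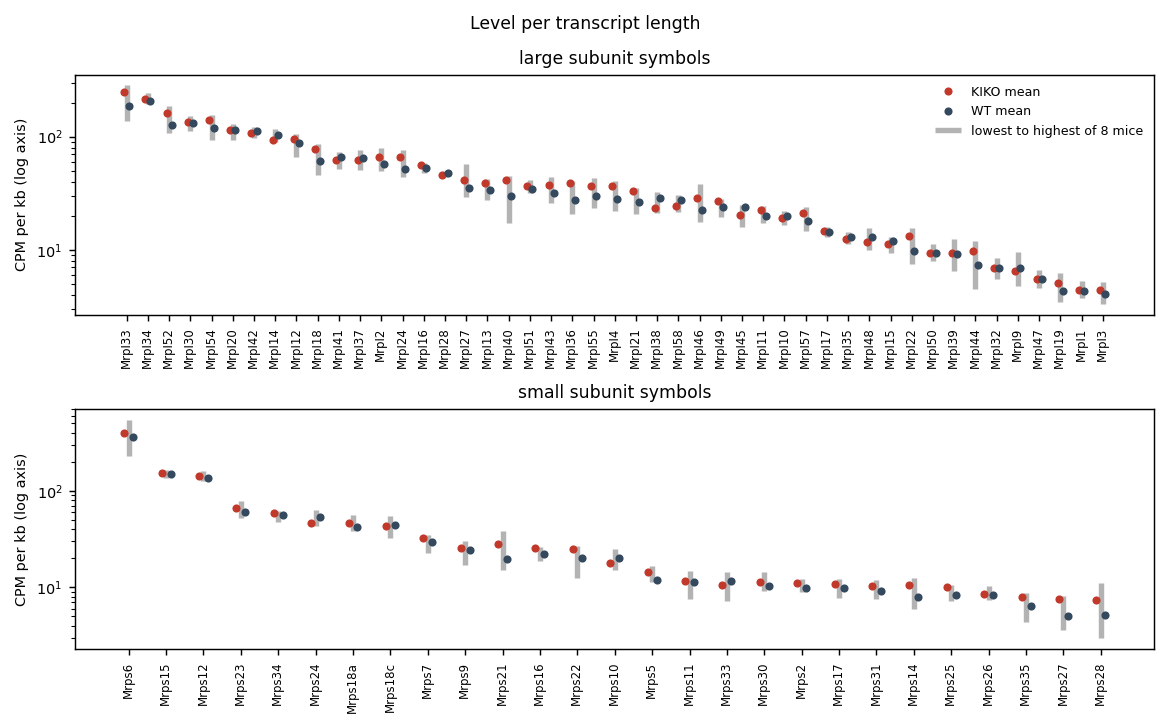
Level per kilobase of transcript (log axis) of each tested gene, ranked within its subunit by the mean over 8 mice, with the KIKO mean in red, the WT mean in dark blue and grey bars from the lowest to the highest mouse. Genes span from about 4.2 to 215.6 CPM per kb in the large subunit, while KIKO and WT means of the same gene lie close together.

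The 4 untested members were low in every library. Mrpl23 had 1.3 to 3.63 CPM, Mrps18b 0.4 to 2.97 CPM and Mrps36 0.303 to 1.34 CPM across the 8 mice, and Mrpl53 had 0 counts in all of them. Mrps36 is known as a subunit of the 2-oxoglutarate dehydrogenase complex. Mrpl53 shares its strand with a read-through gene that also had 0 counts, and how reads were shared between them was not tested. Of the tested members, 25 overlap another protein-coding gene in GENCODE, 23 of them on the opposite strand. The head-to-head pair Mrpl46 and Mrps11 overlaps by 413 bases, Mrpl36 overlaps Ndufs6 by 30 bases and Mrpl18 overlaps Tcp1 by 645 bases. Whether reads were counted by strand is not settled by the sources, so shared stretches are uncertain. Ndufs6, a complex I subunit, had a log2 fold change of -0.12 (adjusted p = 0.652, edgeR) and Tcp1 one of 0.15 (adjusted p = 0.646, edgeR).

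By their GENCODE starts, many members begin head to head with another gene. Within 1000 bases of a protein-coding start on the opposite strand, overlapping starts included, were the starts of 32 of 74 tested members (43.2%), 24 of 47 in the large subunit (51.1%) and 8 of 27 in the small subunit (29.6%), against 16.5% of 10834 tested protein-coding genes. Neighbours include Ptcd2 beside Mrps27 (81 bases apart), Hira beside Mrpl40 (175 bases), Psma2 beside Mrpl32 (75 bases) and Fau beside Mrpl49 (59 bases). No tested neighbour passed, and the log2 fold changes of these were 0.28 for Ptcd2, 0.89 for Hira, 0.34 for Psma2 and -0.26 for Fau.

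Of the genes that work with the mitochondrial ribosome, none passed either. Over 5 lists of 80 genes, 68 were tested and 0 passed in edgeR, with 8 at an unadjusted p under 0.05 and KIKO higher and 2 with KIKO lower, where the shares over all tested genes were 7.13% and 9.06%. Groups that did not overlap were found for 3 of the 68 with KIKO higher and for 2 with KIKO lower, where 3.89% and 4.56% of all tested genes had them. Ribosomal proteins with other symbols had a median log2 fold change of 0.12 over 5 tested genes. Gadd45gip1, a large subunit protein, had 62.4, 34.4, 45.0 and 44.2 CPM in the KIKO mice, against 28.8, 31.5, 37.8 and 40.5 CPM in the WT mice (log2 fold change 0.43, SE 0.18, adjusted p = 0.248, edgeR). Chchd1, a small subunit protein, had a log2 fold change of 0.33 (SE 0.14, adjusted p = 0.254, edgeR), and Aurkaip1 one of 0.12.

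Among 16 translation factors and activators, 10 estimates lay above 0 and the median was 0.02. Lrpprc, which stabilises mitochondrial mRNAs, had 312, 289, 226 and 217 CPM in the KIKO mice, against 132, 167, 264 and 179 CPM in the WT mice. WT mouse 3 alone lay within the KIKO range. The log2 fold change of Lrpprc was 0.49 (SE 0.19, adjusted p = 0.208, edgeR), and 0.71 without WT mouse 3 (adjusted p = 0.0191). Guf1, the counterpart of bacterial elongation factor LepA, had 14.9, 15.6, 14.6 and 21.4 CPM in the KIKO mice, against 26.0, 25.4, 19.4 and 20.8 CPM in the WT mice (log2 fold change -0.46, SE 0.18, adjusted p = 0.23, edgeR). The initiation factor gene Mtif3 had a log2 fold change of 0.41 (SE 0.18, adjusted p = 0.275, edgeR).

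Assembly factors and rRNA modifying enzymes had a median of 0.03 over 25 tested genes. Ybey had 6.27, 5.20, 8.75 and 5.27 CPM in the KIKO mice, against 4.12, 3.94, 3.35 and 4.69 CPM in the WT mice, a low level at which the groups did not overlap (log2 fold change 0.66, SE 0.29, adjusted p = 0.267, edgeR). Eral1, an rRNA chaperone of the small subunit, had a log2 fold change of -0.36 with groups that did not overlap, and Fastkd2, an RNA-binding protein of large subunit assembly, one of 0.43. The mitochondrial aminoacyl-tRNA synthetases had a median of 0.14 over 17 tested genes. Tars2, for threonine, had 16.5, 13.6, 17.2 and 15.8 CPM in the KIKO mice, against 23.5, 22.1, 19.1 and 22.4 CPM in the WT mice. Its KIKO values all lay below the WT values, and the log2 fold change was -0.46 (SE 0.16, adjusted p = 0.174, edgeR). Iars2, for isoleucine, and Yars2, for tyrosine, also had groups that did not overlap, with log2 fold changes of 0.24 and 0.44. Transcription and processing of mitochondrial RNA had a median of -0.02 over 5 tested genes, with Hsd17b10, a subunit of mitochondrial RNase P, at 0.35, Tfam, which packages mitochondrial DNA, at -0.15 and Elac2 at 0.05.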

How the data were processed

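The deposited table holds raw counts per Ensembl gene, which the authors made by trimming reads with Trimmomatic and aligning them with HISAT2 to GRCm38. The study's methods name StringTie for the counts, and the annotation release is not given in the sources used here. A table of log2 values deposited by the authors equals log2 of the count over a size factor plus 1, and entered only 1 alternative. The labels and the study's methods name different extraction and library kits. Symbols, lengths and coordinates came from GENCODE vM21 (GRCm38), with promoters from RefSeq.

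The main test was edgeR 4.0.16 (R 4.3.3): filterByExpr, TMM scaling, a quasi-likelihood fit on genotype over all 8 mice, and Benjamini-Hochberg adjustment over 11080 genes, called at 0.05. No covariate was used. DESeq2 1.42.0, limma 3.58.1, other scalings and filters, a length and GC correction (mgcv 1.9.3), a replicate block and leaving out each mouse were the alternatives. Each mouse is 1 library, and the edgeR p-values set the genotype difference against the variation between mice. Counts within the groups differed beyond sampling noise, so no pair was counted as 1 sample. Scripts were tested on simulated data.

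Genes were named by a rule: the 8 members of each subunit with the smallest p, the 3 highest and lowest per length in each, the iron-sulfur proteins, the 3 genes with the smallest p in each process list, and untested members. Others (Mrpl38, Mrpl45, Mrpl58, those below 0 in the small subunit, overlapping or neighbouring genes, mt-Co1, Letm1, Nars2, the cell type markers that passed) were chosen after their values were seen. The level of the targeted gene is not reported here. The members and lists were chosen with earlier results of these data known. Ict1 (Mrpl58 here), Trmt61b and Prorp were not matched by symbol.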

Additional observations from a re-analysis of the deposited data

Results flagged for a closer look

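In 72 groups of 4 mice examined (the named genes and the summed level of each subunit), 3 single mice lay apart from the rest of their group by Dixon's test, where chance gives about 1 in 20. For Mrpl52, WT mouse 2 had 44.5 CPM, against 54.5 to 55.9 CPM in the other WT mice. For Mrps25, KIKO mouse 1 had 64.7 CPM, against 58.7 to 59.6 CPM in the other KIKO mice. For Guf1, KIKO mouse 4 had 21.4 CPM, against 14.6 to 15.6 CPM in the other KIKO mice.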

How the results depend on the processing

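The median log2 fold changes of both subunits kept their direction under every alternative run. They ranged over 0.01 to 0.09 for the large and 0.07 to 0.18 for the small subunit across the other tools, scalings, filters and the length and GC correction, and over 0.05 to 0.13 and 0.07 to 0.21 when single mice were left out. The number of large subunit genes that passed was 0 to 4 when single mice were left out, with the 4 found without WT mouse 3, and 0 under all other alternatives. No small subunit gene passed under any of them. Among the genes of the process lists, 0 to 3 passed when single mice were left out, where the 3 without WT mouse 3 were Lrpprc, Letm1 and Nars2 (the last with KIKO lower). Without WT mouse 3, 2.53% of all tested genes passed with KIKO higher and 3.28% with KIKO lower. With no filter on low counts 1 process gene passed, Nars2 with KIKO lower, as 1.3% of all genes did. The filter otherwise leaves this gene out. Of single genes, Elac2 turned to -0.019 when scaled by library size alone and ranged over -0.089 to 0.12 when single mice were left out. When single mice were left out, Mrps18c ranged over -0.16 to 0.089, Mrps6 over -0.031 to 0.40 and Tfam over -0.23 to 0.035. The cause was not tested. Mouse numbers are shared between groups, but same-numbered mice did not deviate together (correlations -0.16, -0.14, -0.12 and 0.03). With the replicate block the medians were 0.07 and 0.17, with 0 members and 0 process genes passing. Depth limits the low members: Mrps28 had a 95% interval of -0.35 to 1.34.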
